A study of Mus musculus with 16 samples.

Results

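The 37 genes described here make or regulate sterols and fatty acids. They form a listed set of 23 genes of the sterol branch (Acat2, Hmgcs1, Mvk, Pmvk, Mvd, Idi1, Fdps, Fdft1, Sqle, Lss, Cyp51, Tm7sf2, Msmo1, Nsdhl, Hsd17b7, Ebp, Sc5d, Dhcr7, Srebf2, Scap, Insig1, Insig2 and Stard4) and 14 of the fatty acid branch (Srebf1, Acly, Acss2, Acaca, Fasn, Scd1, Scd2, Elovl5, Elovl6, Fads1, Fads2, Gpam, Mid1ip1 and Acsbg1). Each was found by its symbol, so 37 of 37 listed genes were measured among 17097 genes in all, and all 37 passed the filter on low values in each comparison. The data are RNA-seq values of 16 libraries from the striatum of wild-type C57BL/6J male mice at P63 (63 days), taken 2 h after an injection of 1 mg/kg clozapine N-oxide (CNO, a ligand of engineered receptors) or of vehicle. Each mouse gave 2 libraries: one of whole-lysate RNA after clearing (input), and one of RNA bound to HA-tagged astrocyte ribosomes that were precipitated through the tag (immunoprecipitate, IP). The 16 divide into vehicle IP, CNO IP, vehicle input and CNO input, 4 libraries each, and the titles number the replicates 2 to 5. Every library has the source name stem StAstroGi and the cell type label of a striatal astrocyte, including the input, which is lysate of the whole tissue. The labels do not say which receptor, promoter, vector or tag carrier the mice had, and no group is labelled as mice without a receptor that were given CNO. The titles hold 8 mouse codes, while the series text speaks of 4 mice. Should the numbered samples be technical repeats, the p-values cover no more than the scatter among them.

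Cholesterol is built from acetyl-CoA through mevalonate, isoprenoid units, squalene and lanosterol, and in the adult brain much of it is made in astrocytes because lipoprotein cholesterol does not cross the blood-brain barrier. Fatty acids are built from the same acetyl-CoA through malonyl-CoA, then elongated, desaturated and joined to glycerol. Genes of both branches are known targets of the SREBP transcription factors: SREBP2, from Srebf2, acts mainly on the sterol branch, and SREBP1, from Srebf1, mainly on the fatty acid branch. When sterols are low, the escort protein SCAP carries SREBP from the endoplasmic reticulum to the Golgi, where it is cut to its active form, and when sterols are high the INSIG proteins hold SCAP back.

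The start regions of 5 genes are shown because these genes had the 4 largest rises and the largest fall after CNO in the IP libraries, described further on. Each stretch is the RefSeq sequence just before the annotated start on the gene's strand (assembly GRCm38.p6), 5′ to 3′. For Hsd17b7, 36 bases that the GENCODE model counts as transcribed were left off. Capitals mark CCAAT (the site known for the NF-Y factor, a partner of SREBP), CACNCCA (a form of the sterol regulatory element) and CACGTG (the E-box), on either strand, so that CCAAT also appears as ATTGG.
Pmvk, chr3:89454291-89454540, plus strand: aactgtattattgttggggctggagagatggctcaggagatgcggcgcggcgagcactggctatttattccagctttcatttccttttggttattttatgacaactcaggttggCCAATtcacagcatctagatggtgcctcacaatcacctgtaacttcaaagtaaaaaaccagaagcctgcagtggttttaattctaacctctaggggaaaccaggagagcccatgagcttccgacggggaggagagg
Mvk, chr5:114444019-114444268, plus strand: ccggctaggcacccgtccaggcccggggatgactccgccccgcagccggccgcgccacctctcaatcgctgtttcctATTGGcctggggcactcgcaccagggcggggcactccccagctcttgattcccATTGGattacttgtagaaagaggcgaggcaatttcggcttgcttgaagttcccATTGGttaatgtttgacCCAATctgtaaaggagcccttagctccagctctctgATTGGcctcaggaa
Mvd, chr8:122443423-122443672, minus strand: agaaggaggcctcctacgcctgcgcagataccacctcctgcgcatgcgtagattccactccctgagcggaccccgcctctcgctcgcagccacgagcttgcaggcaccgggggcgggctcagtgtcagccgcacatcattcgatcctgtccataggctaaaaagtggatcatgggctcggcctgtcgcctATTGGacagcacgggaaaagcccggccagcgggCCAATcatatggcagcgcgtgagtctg
Hsd17b7, chr1:169969242-169969455, minus strand: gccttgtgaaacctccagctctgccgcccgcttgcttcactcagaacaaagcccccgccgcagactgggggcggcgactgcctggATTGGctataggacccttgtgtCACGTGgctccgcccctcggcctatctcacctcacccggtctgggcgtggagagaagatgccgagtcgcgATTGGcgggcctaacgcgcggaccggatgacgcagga
Gpam, chr19:55127239-55127488, minus strand: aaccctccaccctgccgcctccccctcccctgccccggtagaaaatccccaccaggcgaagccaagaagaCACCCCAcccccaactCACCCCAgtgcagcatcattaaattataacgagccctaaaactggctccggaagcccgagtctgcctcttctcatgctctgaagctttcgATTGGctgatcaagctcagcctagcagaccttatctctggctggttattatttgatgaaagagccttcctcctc
The Mvk stretch holds CCAAT at 5 places, that of Mvd at 2, and those of Pmvk and Gpam at 1 each. That of Hsd17b7 holds CCAAT at 2 places and CACGTG at 1, and that of Gpam is the one of these 5 with CACNCCA, at 2 places. Pmvk and Gpam each have another annotated start, not shown. Its window of 250 bases before to 50 after held none of these matches in either gene. Over windows of 250 bases before to 50 after the start, 30 of the 37 genes matched an entry, taking the first window listed for each gene. CCAAT was in 23 of the 30 windows (76.7%), against 38.1% of the windows of 12416 measured genes, and the mean GC content was 60.1% in both sets. CACNCCA was in 8 of the 30 (26.7%, against 18.0%) and CACGTG in 5 (16.7%, against 9.60%). CACNCCA and CCAAT can share letters where one runs into the other. These are matches of letters, not measured binding.

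After CNO, the sterol branch was higher in the IP libraries and the fatty acid branch was mixed. Of the 37 genes, 22 rose, 3 fell and 12 did not pass (limma, adjusted p under 0.05), where 10.2% of the 15697 genes tested rose and 7.0% fell. The sterol branch held 18 of the genes that rose and none that fell, with a median log2 fold change of 0.87. The fatty acid branch held 4 that rose (Elovl5, Elovl6, Scd1 and Acss2) and 3 that fell (Gpam, Srebf1 and Mid1ip1), with a median of -0.03. The median of all genes tested was -0.006. At least 2-fold rises were found in 10 sterol genes, against 2.44% of all genes, and an at least 2-fold fall in Gpam, against 0.319%. In all 18 sterol genes that rose, each CNO IP library lay above each vehicle IP library, an order found in 12.7% of all genes. In the fatty acid branch 5 genes had all CNO libraries above and 4 had them all below, an order found in 10.1% of all genes. Levels are given as CPM in replicates 2, 3, 4 and 5 in that order, recovered from the deposited log2 values. CPM are read counts scaled to 1 M of the normalized library size that these values imply. That size was 0.88 to 0.93 times the recovered reads in IP libraries and 1.08 to 1.14 times in input libraries. These factors therefore enter each ratio of IP over input. In bulk samples, fewer cells of a type and less RNA per cell cannot be told apart. Scaling by the upper quartile moved the share of higher among all genes called from 59.3% to 38.5%, and median-ratio scaling to 48.1%, while the 18 sterol genes rose under both.

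**Figure D1:**
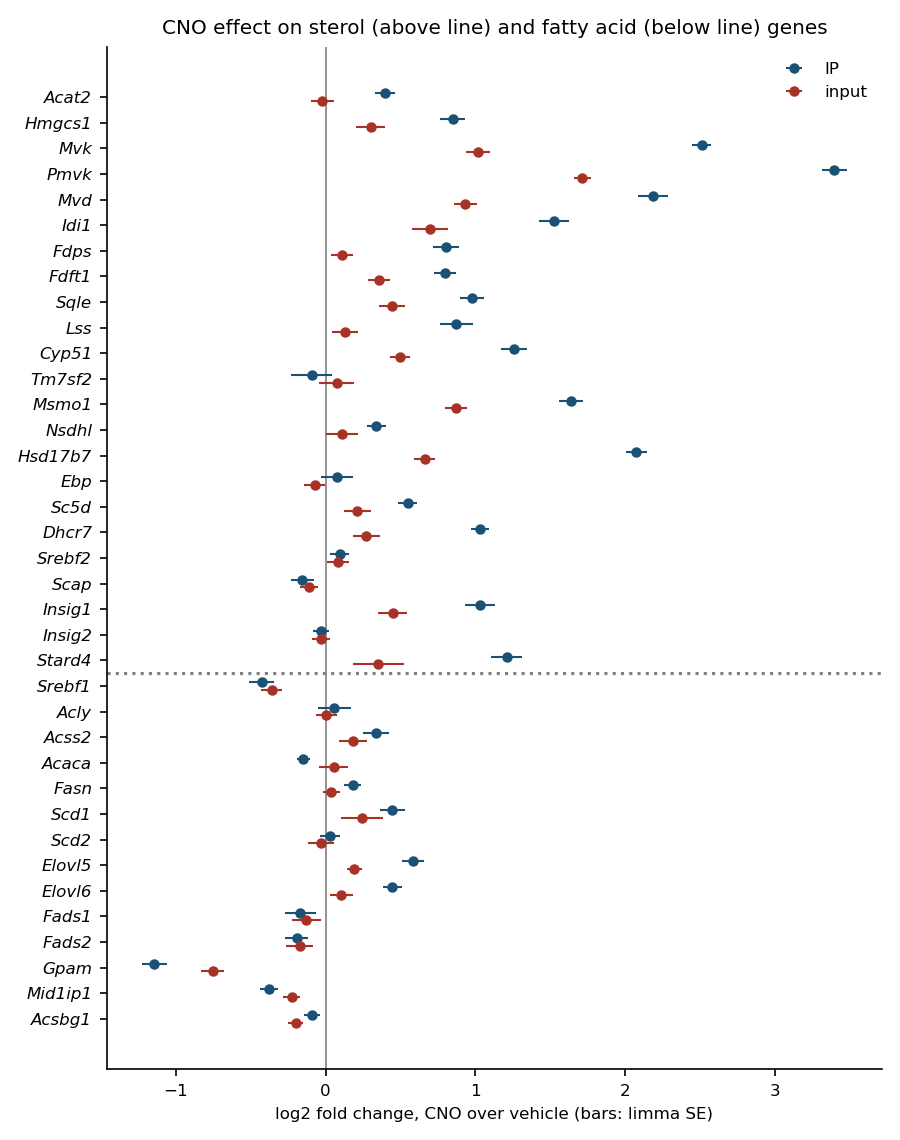
Log2 fold change of the 37 genes after CNO, in IP and in input libraries, with bars of 1 standard error and 4 libraries per group. The sterol genes reach 3.39 (Pmvk) in IP, while Gpam, at -1.14, is the lowest of all.

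The largest rises stood in the 3 steps that turn mevalonate into isopentenyl diphosphate. Pmvk, phosphomevalonate kinase, had 461, 507, 382 and 415 CPM in CNO IP and 43.5, 43.3, 39.6 and 40.6 CPM in vehicle IP (log2 fold change 3.39, SE 0.08, adjusted p = 3.03e-08). In input it had 78.5, 91.5, 82.1 and 84.9 CPM with CNO and 25.00, 26.2, 25.5 and 25.8 CPM with vehicle (log2 fold change 1.71, SE 0.06, adjusted p = 2.66e-07). The Pmvk groups stood far apart in both kinds of RNA, and the 4 vehicle libraries lay close together. Mvk, mevalonate kinase, whose start region holds the 5 CCAAT matches, had 197, 169.8, 162 and 168 CPM in CNO IP and 29.02, 31.5, 31.5 and 29.9 CPM in vehicle IP (log2 fold change 2.51, SE 0.06, adjusted p = 3.55e-08). In input Mvk had 32.1, 28.9, 32.2 and 29.7 CPM with CNO and 13.4, 15.5, 16.8 and 15.1 CPM with vehicle (log2 fold change 1.02, SE 0.08, adjusted p = 1.39e-04). For Mvk, replicate 2 was the highest of the CNO IP libraries and the groups did not overlap in either RNA. Mvd, mevalonate diphosphate decarboxylase, had 152, 137, 122 and 130.0 CPM in CNO IP and 29.8, 35.00, 28.8 and 25.6 CPM in vehicle IP (log2 fold change 2.18, SE 0.10, adjusted p = 9.92e-07). Mvd input values were 23.4, 24.8, 26.3 and 25.2 CPM with CNO and 12.3, 14.3, 13.8 and 11.98 CPM with vehicle (log2 fold change 0.93, SE 0.08, adjusted p = 1.87e-04). Again no CNO library overlapped a vehicle library of the same RNA.

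Upstream of these kinases both listed genes rose in IP by less than 2-fold. Acat2, the cytosolic thiolase that joins acetyl-CoA units, rose by 0.40 (SE 0.07) on the log2 scale, from 39.6 ± 2.37 to 52.2 ± 3.88 CPM (SD, n = 4). Hmgcs1, the synthase that makes HMG-CoA, rose by 0.85 (SE 0.08), from 470.4 ± 47.6 to 845 ± 67.6 CPM. Neither passed in input, where Acat2 stood at -0.02 and Hmgcs1 at 0.30.

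The 3 genes that assemble squalene from isoprenoid units rose in IP. Idi1, the isomerase that balances the C5 isoprenoid units, had 27.9, 28.2, 23.4 and 21.9 CPM in CNO IP and 8.28, 9.87, 8.61 and 8.26 CPM in vehicle IP (log2 fold change 1.53, SE 0.10, adjusted p = 8.75e-06). Its input values were 7.56, 8.09, 7.53 and 6.72 CPM with CNO and 4.17, 5.50, 4.69 and 4.19 CPM with vehicle (log2 fold change 0.69, SE 0.12, adjusted p = 0.0252). Both comparisons of Idi1 were free of overlap. Its input call was lost without any one of CNO input replicates 2 to 5 or vehicle input replicates 2 and 4. It was also lost with the replicate number as a block (adjusted p up to 0.116 over these settings). Fdps, farnesyl diphosphate synthase, rose by 0.80 (SE 0.09) and Fdft1, squalene synthase, by 0.80 (SE 0.07) on the log2 scale in IP. In input neither passed, at 0.11 for Fdps and 0.35 for Fdft1, although the Fdft1 groups did not overlap.

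Of the 10 genes from squalene to cholesterol, 8 rose in IP and Tm7sf2 and Ebp did not pass. Sqle, squalene epoxidase, a rate-limiting step, had 182, 191, 166 and 163 CPM in CNO IP and 90.4, 98.7, 90.1 and 78.02 CPM in vehicle IP (log2 fold change 0.97, SE 0.08, adjusted p = 3.91e-05). Sqle input values were 47.9, 46.8, 43.2 and 52.5 CPM with CNO and 33.04, 38.6, 37.4 and 31.2 CPM with vehicle (log2 fold change 0.44, SE 0.08, adjusted p = 0.0401). The Sqle groups were apart in both, but the input call was not stable. It was lost without CNO input replicate 2, 3 or 5, or vehicle input replicate 2, 4 or 5 (adjusted p up to 0.172). Upper quartile scaling, eBayes without trend and robust, and the replicate number as a block also lost it (adjusted p up to 0.208). Cyp51, lanosterol demethylase, had 365, 360.3, 317 and 307 CPM in CNO IP and 141, 159.7, 140.3 and 124 CPM in vehicle IP (log2 fold change 1.26, SE 0.09, adjusted p = 1.22e-05). In input Cyp51 had 77.5, 72.2, 72.6 and 73.97 CPM with CNO and 51.4, 57.5, 54.9 and 46.99 CPM with vehicle (log2 fold change 0.49, SE 0.07, adjusted p = 0.00518). CNO IP replicates 2 and 3 were the higher pair for both Sqle and Cyp51. Msmo1, the C4 methylsterol oxidase, had 554, 614, 557 and 498 CPM in CNO IP and 176, 203, 165 and 171 CPM in vehicle IP (log2 fold change 1.64, SE 0.08, adjusted p = 1.54e-06). Msmo1 input values were 143, 156, 156 and 151 CPM with CNO and 82.6, 92.2, 84.8 and 72.9 CPM with vehicle (log2 fold change 0.87, SE 0.07, adjusted p = 1.80e-04). Its lowest CNO library was above its highest vehicle library in both. Hsd17b7, the ketosteroid reductase of the same C4 demethylation, had 130.1, 128, 118 and 107 CPM in CNO IP and 27.2, 30.9, 28.4 and 28.2 CPM in vehicle IP (log2 fold change 2.07, SE 0.07, adjusted p = 1.46e-07). In input Hsd17b7 had 30.96, 31.1, 35.2 and 30.2 CPM with CNO and 19.3, 20.5, 21.8 and 18.9 CPM with vehicle (log2 fold change 0.66, SE 0.07, adjusted p = 0.00115). The Hsd17b7 groups did not overlap in either RNA.

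Dhcr7, which makes cholesterol from its 7-dehydro precursor, had 70.4, 70.3, 62.7 and 65.3 CPM in CNO IP and 34.1, 35.1, 31.3 and 30.9 CPM in vehicle IP (log2 fold change 1.03, SE 0.06, adjusted p = 4.24e-06). Its input values, 18.2, 15.5, 14.9 and 15.1 CPM with CNO and 13.4, 13.7, 13.9 and 11.8 CPM with vehicle, did not overlap but did not pass (log2 fold change 0.27, SE 0.09, adjusted p = 0.29). Among the other 5, Lss (lanosterol synthase) rose by 0.87 (SE 0.11), Sc5d (the C5 desaturase) by 0.55 (SE 0.06) and Nsdhl (a dehydrogenase of C4 demethylation) by 0.34 (SE 0.06) on the log2 scale. Ebp, the sterol isomerase, stood at 0.08 (SE 0.11) and Tm7sf2, a C14 reductase, at -0.09 (SE 0.14), each with overlapping groups.

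**Figure D2:**
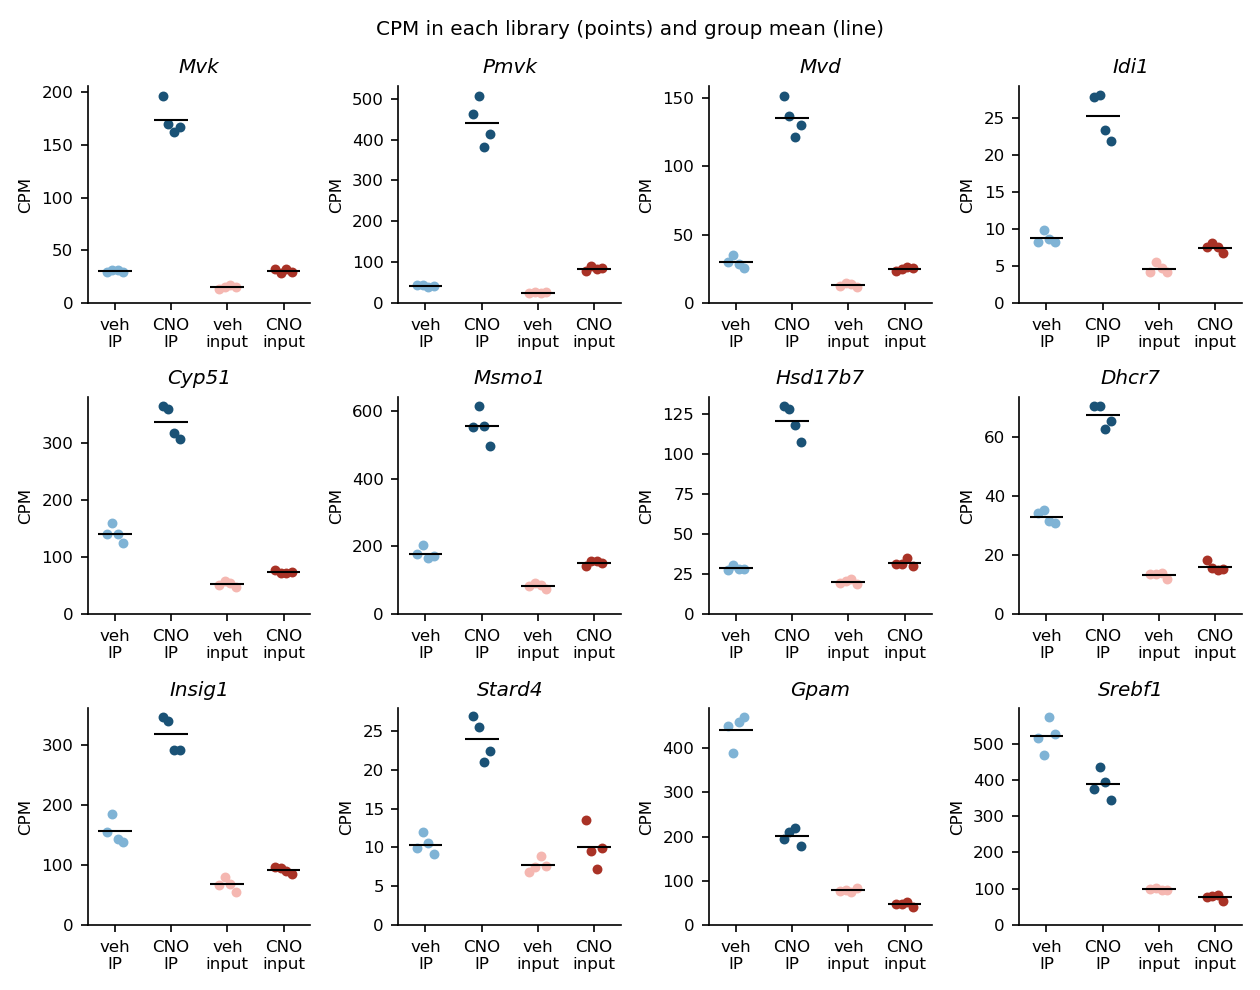
CPM in each library (points) and group means (lines) for the 11 genes changed at least 2-fold by CNO in IP and for Srebf1. In each IP panel the CNO and vehicle points do not overlap, and Gpam and Srebf1 are the 2 genes that are lower with CNO.

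Among the genes that control SREBP, the one that rose was Insig1, while Srebf2, Scap and Insig2 did not pass. Insig1, itself a known SREBP target, had 348, 339.8, 293 and 293 CPM in CNO IP and 156, 186, 144 and 139 CPM in vehicle IP (log2 fold change 1.03, SE 0.10, adjusted p = 1.27e-04). In input it had 96.3, 94.9, 90.6 and 85.3 CPM with CNO and 66.7, 79.7, 68.9 and 55.6 CPM with vehicle, without overlap and short of the threshold (log2 fold change 0.45, SE 0.10, adjusted p = 0.0823). Stard4, a carrier that moves cholesterol between membranes, had 26.97, 25.5, 21.01 and 22.4 CPM in CNO IP and 9.93, 11.9, 10.5 and 9.13 CPM in vehicle IP (log2 fold change 1.21, SE 0.10, adjusted p = 5.75e-05). Stard4 in input had 13.5, 9.56, 7.22 and 9.95 CPM with CNO and 6.86, 7.52, 8.86 and 7.65 CPM with vehicle, with overlap (log2 fold change 0.35, SE 0.17, adjusted p = 0.54). CNO input replicate 2 was the highest for Stard4 and replicate 4 the lowest, below 3 of the 4 vehicle libraries.

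For the 3 control genes that did not pass, the CNO and vehicle libraries overlapped in both RNAs. Srebf2, which encodes SREBP2, had 221, 225, 203 and 235 CPM in CNO IP and 213, 191, 221 and 205 CPM in vehicle IP (log2 fold change 0.09, SE 0.06, adjusted p = 0.376). Scap had 198, 221, 209 and 213 CPM in CNO IP and 234, 204, 233 and 267 CPM in vehicle IP (log2 fold change -0.16, SE 0.08, adjusted p = 0.229). Insig2 had 38.2, 37.7, 40.3 and 36.6 CPM in CNO IP and 37.1, 41.9, 37.4 and 39.9 CPM in vehicle IP (log2 fold change -0.03, SE 0.05, adjusted p = 0.78). In input the 3 stood at 0.08 for Srebf2, -0.11 for Scap and -0.03 for Insig2, with SE of 0.06 to 0.07. RNA levels of Srebf2 and Scap do not measure the cutting of SREBP2, which was not assayed in these libraries.

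In the fatty acid branch the largest change was a fall. Gpam, the mitochondrial acyltransferase that begins glycerolipid synthesis, had 194, 210.0, 220.0 and 178 CPM in CNO IP and 450.1, 390.0, 459 and 469.6 CPM in vehicle IP (log2 fold change -1.14, SE 0.08, adjusted p = 1.58e-05). In input Gpam had 47.2, 47.5, 51.9 and 39.95 CPM with CNO and 77.6, 78.5, 74.4 and 83.2 CPM with vehicle (log2 fold change -0.75, SE 0.08, adjusted p = 9.06e-04). Every CNO library was below every vehicle library in both. Srebf1, which encodes SREBP1, had 375, 435, 394 and 346 CPM in CNO IP and 515, 468, 573 and 526 CPM in vehicle IP (log2 fold change -0.43, SE 0.08, adjusted p = 0.00751). Srebf1 input values were 77.4, 80.9, 82.6 and 66.6 CPM with CNO and 98.1, 103, 95.2 and 96.99 CPM with vehicle (log2 fold change -0.36, SE 0.07, adjusted p = 0.0461). Srebf1 was thus lower in both without overlap, but its input call was lost without any one of the 8 input libraries (adjusted p up to 0.172). Mid1ip1, a partner of acetyl-CoA carboxylase, fell in IP by 0.38 on the log2 scale (SE 0.06), with 242 to 288 CPM against 332 to 342 CPM.

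The enzymes that make palmitate did not pass in IP. Fasn, fatty acid synthase, had 1522, 1529.8, 1350.4 and 1407 CPM in CNO IP and 1282, 1287, 1311 and 1239 CPM in vehicle IP (log2 fold change 0.18, SE 0.06, adjusted p = 0.0584). Acaca, acetyl-CoA carboxylase 1, had 93.1, 94.4, 84.3 and 90.8 CPM in CNO IP and 101, 100.0, 103 and 97.5 CPM in vehicle IP (log2 fold change -0.15, SE 0.05, adjusted p = 0.0544). The Fasn groups did not overlap, with CNO above, and neither did those of Acaca, with CNO below, so both lay just short of the threshold on opposite sides. Acaca passed as lower with upper quartile scaling, median-ratio scaling and the stricter filter, and Fasn passed as higher without CNO IP replicate 4 and in the fit of all 16 libraries. Scd2, a stearoyl-CoA desaturase, had 7340.3, 8364, 7263 and 7232 CPM in CNO IP and 7424, 7135, 7561 and 7428 CPM in vehicle IP (log2 fold change 0.03, SE 0.07, adjusted p = 0.843). Replicate 3 was the high library of the CNO IP group for Scd2, and the groups overlapped. The input changes of these 3 genes were small, at 0.04 for Fasn, 0.05 for Acaca and -0.03 for Scd2.

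Elongases and a desaturase made up most of the fatty acid genes that rose. Elovl5, an elongase of polyunsaturated chains, rose by 0.58 (SE 0.07) on the log2 scale in IP, with 623 to 661 CPM against 365 to 452 CPM. Elovl6, an elongase of palmitate, rose by 0.44 (SE 0.06) and Scd1, the other stearoyl-CoA desaturase of the list, by 0.44 (SE 0.08). Acss2, an acetyl-CoA synthetase, rose by 0.34 (SE 0.09, adjusted p = 0.0298). This call was lost without any one of CNO IP replicates 2 and 3 or vehicle IP replicates 2 and 4. It was also lost with upper quartile scaling and with eBayes without trend and robust (adjusted p up to 0.0781 over these settings). The desaturases Fads1 and Fads2 stood at -0.17 and -0.19 and did not pass. Without vehicle IP replicate 5, the lowest of its group for 23 of the 37 genes, they passed as lower, at -0.27 for Fads1 (adjusted p = 0.0228) and -0.26 for Fads2 (adjusted p = 0.0199). Acly, which makes cytosolic acetyl-CoA, stood at 0.06 and Acsbg1, an acyl-CoA synthetase of glia, at -0.09.

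Summed by step, the levels differed most between CNO and vehicle at the mevalonate kinases and decarboxylase. The 3 genes from mevalonate kinase to the decarboxylase summed to 665 to 813 CPM in CNO IP and 96.1 to 109.8 CPM in vehicle IP, a ratio of means of 7.35. The ratio was 2.29 for the 10 genes from squalene on, 1.80 for the 3 isoprenoid genes and 1.76 for Acat2 with Hmgcs1. Summed over the sterol branch, CNO IP libraries held 4027 to 4619 CPM and vehicle IP libraries 1976 to 2245 CPM. The fatty acid branch summed to 13715 to 15707 CPM and 13902 to 14635 CPM, which overlap, and Scd2 was the largest part of either sum. In input the sums of the kinases and decarboxylase had a ratio of 2.59, and the sterol branch one of 1.29.

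**Figure D3:**
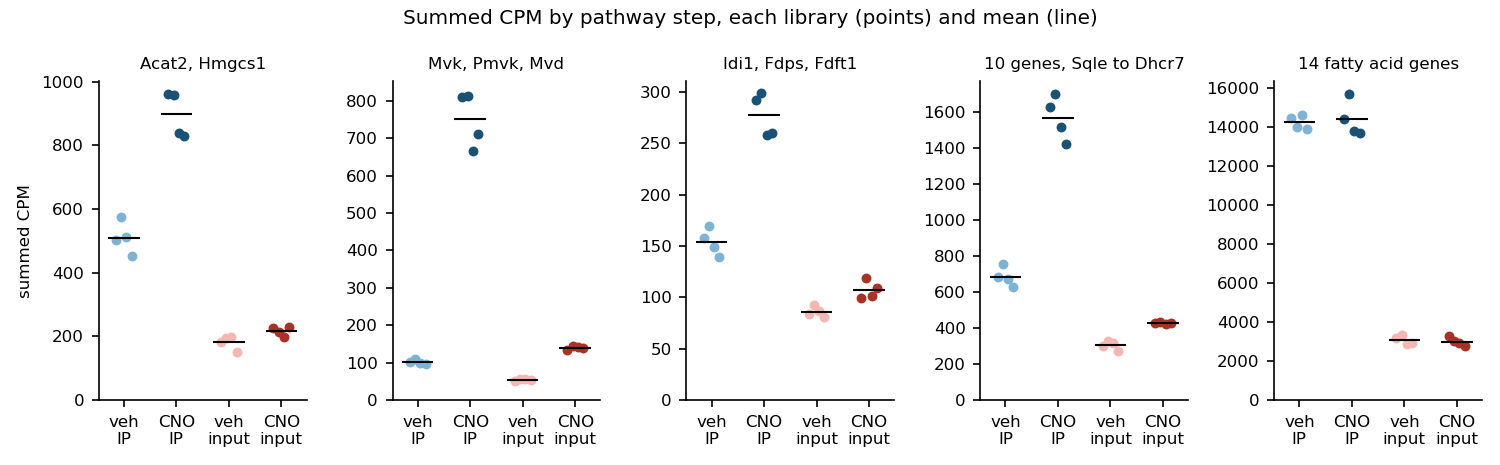
Summed CPM of the genes of each pathway step in each library (points) and group means (lines), on linear axes from 0. The step of Mvk, Pmvk and Mvd differs most between CNO and vehicle in IP, with a ratio of 7.35.

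In input, 8 of the 37 genes rose and 2 fell after CNO, where 0.82% of the 15729 genes tested rose and 0.184% fell. The genes that rose were Mvk, Pmvk, Mvd, Idi1, Sqle, Cyp51, Msmo1 and Hsd17b7, all of the sterol branch and all higher in IP too. Gpam and Srebf1 fell, as in IP. In 11 of the 23 sterol genes each CNO input library lay above each vehicle input library, against 3.24% of all genes, and in none below. In the fatty acid branch 1 gene had them all above and 4 all below, against 4.04% of all genes. Input RNA holds the transcripts of all cells of the tissue, astrocytes included.

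Whether the CNO change differed between IP and input was tested as an interaction. The log2 fold change was higher in IP than in input in 17 of the 37 genes and lower in none. Of 16264 genes tested, 4.18% passed in the first direction and 0.572% in the other. Of these 17, 16 were sterol genes and the other was Elovl5, at 0.39 (SE 0.09). The differences of log2 fold changes were 1.68 (SE 0.10, adjusted p = 3.61e-08) for Pmvk and 1.49 (SE 0.10, adjusted p = 1.07e-07) for Mvk. They were 1.41 (SE 0.10, adjusted p = 1.25e-07) for Hsd17b7 and 1.25 (SE 0.13, adjusted p = 8.81e-06) for Mvd. Those 4 were the differences of at least 2-fold, against 1.05% of all genes. Of the 17, 11 passed under every setting run. Acat2, Hmgcs1, Fdft1, Insig1 and Stard4 lost their calls without certain single libraries, CNO IP replicate 3 and vehicle IP replicate 4 among them in each case (adjusted p up to 0.0738), and Sqle with upper quartile scaling. With mouse as a block Sc5d (0.34, adjusted p = 0.0109) and Elovl6 (0.34, adjusted p = 0.0142) also passed, and Gpam passed as a stronger fall in IP (-0.39, adjusted p = 0.00456). Upper quartile scaling left 11 of the 17 higher calls, and moved the share of higher among all genes called from 88.0% to 72.4%.

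Nearly all of these genes were higher in IP than in input, and the median ratio was larger in the fatty acid branch than in the sterol branch. In vehicle mice 35 of the 37 were higher in IP than in input and Insig2 was lower, where 37.6% of 15889 genes were higher and 37.2% lower. The median log2 ratio of IP over input was 2.10 in the fatty acid branch and 0.96 in the sterol branch, against 0.004 for all genes. All 14 fatty acid genes were higher, led by Acsbg1 (2.82, SE 0.05), Fads2 (2.68, SE 0.09), Gpam (2.49, SE 0.07), Srebf1 (2.40, SE 0.06) and Scd2 (2.38, SE 0.07). Median ratios of marker lists in the same libraries were 2.96 for astrocytes, 2.13 for interneurons, 1.98 for ependymal cells and 0.77 for oligodendrocytes, so a ratio above 0 does not point to astrocytes alone. In the sterol branch the largest ratio was that of Hmgcs1 (1.62, SE 0.10). Pmvk and Hsd17b7, both among the 4 largest rises after CNO, had ratios of 0.70 and 0.51 in vehicle mice. Insig2 stood at -0.31 (SE 0.05, adjusted p = 3.18e-04), and Ebp did not pass at 0.21 (adjusted p = 0.112) but passed with mouse as a block (adjusted p = 0.0155).

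In CNO mice 36 of the 37 were higher in IP and Insig2 was lower, where 40.0% of 15819 genes were higher and 35.0% lower. The median of the sterol branch was then 1.75 and that of the fatty acid branch 2.22. These ratios share their IP and input libraries with the CNO comparisons above. Upper quartile scaling moved the median of all genes by -0.16 in vehicle mice and by -0.22 in CNO mice, and the share of higher calls from 50.3% to 40.6% and from 53.3% to 39.8%. With it, Stard4 and Elovl6 in vehicle mice and Ebp in CNO mice no longer passed as higher in IP.

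**Figure D4:**
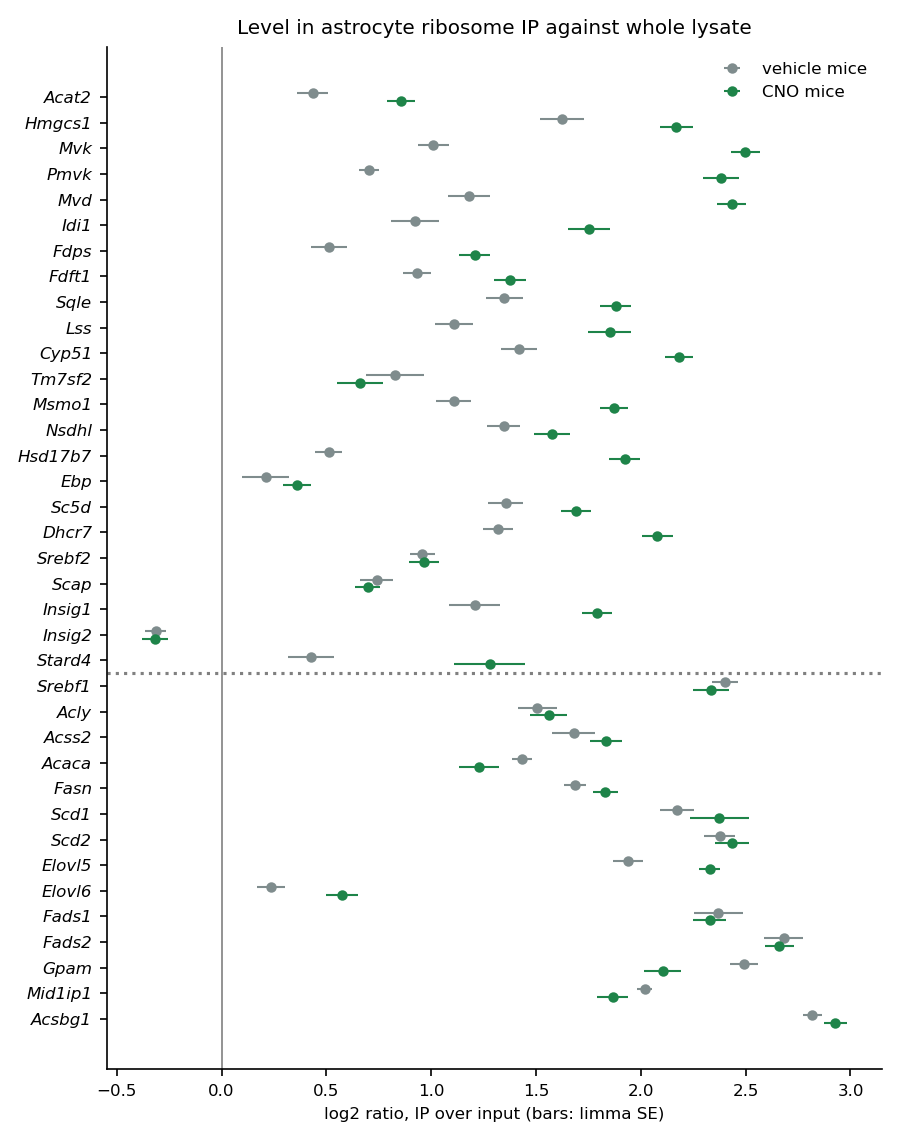
Log2 ratio of IP over input for each gene in vehicle mice and in CNO mice, with bars of 1 standard error, n = 4 per group. All fatty acid genes and most sterol genes lie above 0, and Insig2 lies below 0 in both (-0.31 and -0.32).

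Levels were compared between genes per kilobase of exon, from the GENCODE vM21 models. In vehicle IP the highest was Scd2 at 1352 ± 32.9 CPM per kb (SD, n = 4), followed by Acsbg1 at 298 ± 11.4, Fads1 at 173 ± 23.1 and Mid1ip1 at 158 ± 1.80 CPM per kb. Fads1 and Mid1ip1 did not differ beyond their spread. Hmgcs1, at 102 ± 10.4 CPM per kb, was the highest of the sterol genes, and Stard4, at 1.86 ± 0.212, and Idi1, at 2.50 ± 0.217, were the lowest. Pmvk, at 24.4 ± 1.13 CPM per kb in vehicle IP, stood at 258 ± 31.9 CPM per kb in CNO IP and was then the highest of the sterol branch, above Hmgcs1 at 184 ± 14.7.

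For the 11 most changed genes, the nearest measured gene on each side was also looked at. Of these 22 neighbours, 1 rose, 2 fell and 19 did not pass after CNO in IP, where 10.2% of all genes tested rose and 7.0% fell. The counts are near those shares, and no result about neighbours is read from them. Distances ran from 168 bases to 1018 kb (Adra2a, from Gpam), and 11 of the nearest annotated neighbours were not measured. Mmab, which makes adenosylcobalamin, begins 209 bases from Mvk on the opposite strand and stood at -0.04, SE 0.05. The other changes were small, or at a low level: Gtpbp4, beside Idi1, rose by 0.33, SE 0.05, and Kcnn3, beside Pmvk, fell (-0.25, SE 0.06). Tectb, beside Gpam, fell (-1.44, SE 0.36) from 0.599 to 0.236 CPM. Neighbours of Hsd17b7 include an antisense model 168 bases away (3110045C21Rik, 0.48, SE 0.36), which did not pass. In the annotation 8 of the 37 genes overlap another protein-coding model. The measured ones of these (Ctsb with Fdft1, Akap9 with Cyp51, Vps51 with Tm7sf2, Rai1 with Srebf1, and Ggt7 and Gss with Acss2) did not pass in IP. How the counting assigned reads of overlapping models, and whether it used strand, is not stated.

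**Figure D5:**
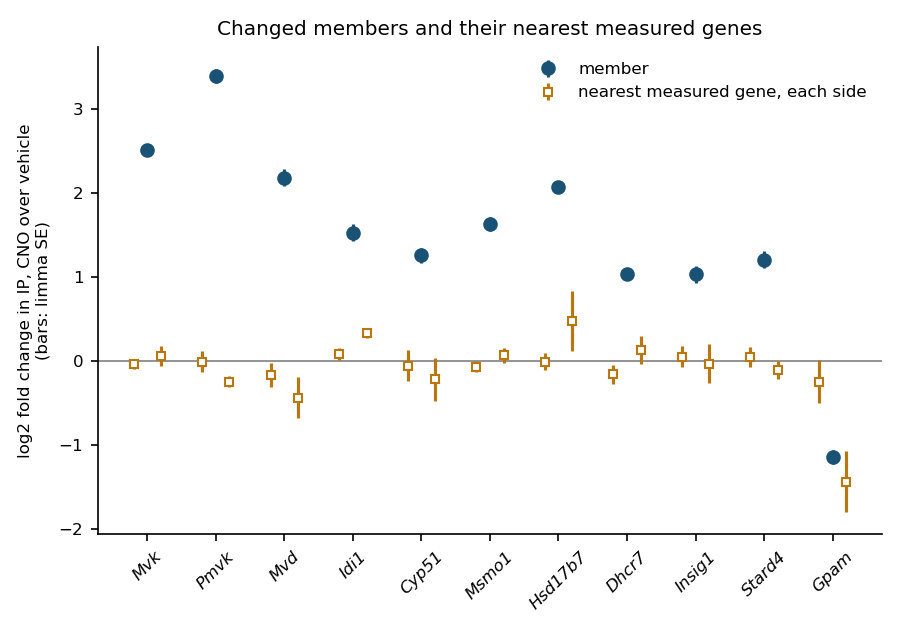
Log2 fold change after CNO in IP of the 11 genes changed at least 2-fold and of the nearest measured gene on each side, with bars of 1 standard error. The neighbours lie between -0.44 (Snai3) and 0.48 (3110045C21Rik) except Tectb (-1.44), a gene of under 1 CPM.

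Other genes of the 2 pathways were counted from lists of the same kind. Of 34 other genes of sterol synthesis, transport and SREBP processing, 32 were tested in IP, 5 rose (15.6%, against 10.2% of all genes) and 2 fell (6.25%, against 7.0%), with a median log2 fold change of -0.01. Lbr, a C14 sterol reductase of the nuclear envelope, rose by 0.39 (SE 0.09), Por, the electron donor of Cyp51 and Sqle, by 0.34 (SE 0.05) and Nus1, of dolichol synthesis, by 0.17 (SE 0.04). The 2 that fell were Fdxr (-0.22, SE 0.06) and Mbtps1, the site-1 protease that cuts SREBP (-0.18, SE 0.05). The other 2 that rose are counted and not named here. Of 58 other genes of fatty acid and triglyceride synthesis, 50 were measured and tested, 5 rose (10% of the 50, against 10.2% of all genes) and 6 fell (12%, against 7.0%), with a median of -0.06. No result about the list is read from these counts, and the genes named next are single genes. Acsl4, an acyl-CoA synthetase of polyunsaturated fatty acids, rose by 0.76 (SE 0.08) and Dgat1, of triglyceride synthesis, by 0.49 (SE 0.06). Ppara, a nuclear receptor of fatty acid oxidation, fell by 0.82 (SE 0.14), Thrsp, a paralog of Mid1ip1, by 0.44 (SE 0.11), and Acss1, the mitochondrial counterpart of Acss2, by 0.43 (SE 0.08). In input, 2 of the sterol list and none of the fatty acid list passed.

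The astrocyte label of the IP libraries was checked against markers. In vehicle mice each of 12 astrocyte markers was higher in the IP libraries, and their summed level was 30934 to 37510.0 CPM in vehicle IP against 3353 to 3664 CPM in vehicle input. Markers of interneurons (7 of 8), ependymal cells (6 of 6) and oligodendrocytes (7 of 10) were also higher in IP, where 37.6% of all genes were higher. Those of medium spiny neurons (10 of 10 tested), microglia (10 of 10) and endothelial cells (8 of 8) were lower, where 37.2% of all genes were lower. Lists of oligodendrocyte precursors (3 of 7 higher, 1 lower) and of pericytes and smooth muscle (2 of 8 higher, 4 lower) were mixed. After CNO, 2 of 12 astrocyte markers fell in IP (Gja1 and S100b), where 7.0% of all genes fell, and their sum, 32314 to 35792 CPM, overlapped that of vehicle. Sums that did not overlap between CNO and vehicle were those of 8 pericyte and smooth muscle markers in IP (125 to 153 against 184 to 193 CPM; 1 of 8 rose and 1 fell, against 10.2% and 7.0% of all genes) and of 8 endothelial markers in input. The endothelial sums were 99.4 to 123 CPM in CNO input against 136 to 148 CPM in vehicle input, where 2 of 8 fell (25%, against 0.184% of all genes). No marker of these lists was at 0 in all libraries of a group. The part of these cells in the changes of the sterol and fatty acid genes was not tested. The libraries held 52.1 to 61.5 M reads (M, mega) in IP and 32.8 to 40.3 M reads in input.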

How the data were processed

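The 16 libraries (4 groups of 4, set by the labels' injection and RNA type) were paired-end RNA-seq from 100 ng of RNA (Nugen Ovation V2 kit, mRNA enriched), per the labels' protocols. Bcl2fastq 2.17, STAR, HTSeq, limma and the build mm10 were used, per the submitters' processing notes. Annotation and strand setting: not given in the sources used here.

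Per library the authors deposited 17098 lines of log2 CPM, and 1 identical duplicate line was dropped. The values fit whole reads to which 0.25 was added before the log2. Whole reads within 0.01 were recovered for 100% of values. CPM was recomputed from these and the normalized library sizes, without the prior count. A gene without reads stands at -7.54. Limma-voom on these reads called 1590 genes higher and 1086 lower in the CNO comparison in IP, against 1600 and 1099 in the main test.

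The main test was limma 3.58.1 (R 4.3.3) on the log2 CPM, with a trend and robust variance and Benjamini-Hochberg adjustment over all genes tested, at an adjusted p under 0.05. Genes with under 15 reads over the libraries compared, or with the CPM of 10 reads of the median library in fewer than 4 of them, were not tested. Comparisons were CNO against vehicle in IP and in input, IP against input in each kind of mouse, and the interaction. The scripts were tested on simulated data. The IP and input libraries of a mouse share its title code and deviated together from their group means. The correlations were 0.192 to 0.545 in vehicle and 0.181 to 0.402 in CNO mice, each best with its own mouse, so IP and input are paired. The main tests held no mouse term, so their SE and p-values leave this pairing out. Only the alternatives with mouse as a block use it. Alternatives were other filters, scalings, pseudocounts and variance settings, voom, blocks and each library left out.

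The 37 genes and the lists of other genes and markers were chosen with earlier results of these data known. Values in every library are given for genes changed at least 2-fold in IP or in the interaction and for Srebf1, Srebf2, Insig1, Insig2, Scap, Sqle, Fasn, Acaca and Scd2. Of each list of other genes up to 6 that passed in IP with the largest change could be named; 2 of the sterol list are counted and not named, and the fatty acid genes named are fewer. Positions and neighbours come from GENCODE vM21 (GRCm38) and start sequences from RefSeq (GRCm38.p6).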

Additional observations from a re-analysis of the deposited data

Results flagged for a closer look

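Of 148 sets of 4 libraries (37 genes in 4 groups), 5 held a library standing apart, where the gap to the nearest of the others, as a share of the whole range passed Dixon's critical value for 4 values. Chance alone flags about 1 in 20, which is 7.4 of 148. The 5 were Acly in CNO IP replicate 5 (the lowest, 0.846), Scd2 in CNO IP replicate 3 (the highest, 0.898), Elovl5 in vehicle IP replicate 3 (the lowest, 0.928), and Fads1 and Acsbg1 in vehicle IP replicate 5 (the lowest, 0.843 and 0.903). Of these genes, Elovl5 passed in the CNO comparison in IP, and it also passed without vehicle IP replicate 3.

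For 17 genes the CNO effect differed between IP and input by the interaction test, in each case with the higher value in IP. The difference of log2 fold changes was 1.68 for Pmvk, 1.49 for Mvk, 1.41 for Hsd17b7 and 1.25 for Mvd. It was 0.85 for Stard4, 0.83 for Idi1, 0.77 for Msmo1, 0.76 for Cyp51 and for Dhcr7, 0.74 for Lss and 0.69 for Fdps. It was 0.58 for Insig1, 0.55 for Hmgcs1, 0.53 for Sqle, 0.44 for Fdft1, 0.42 for Acat2 and 0.39 for Elovl5.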

How the results depend on the processing

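Of the 25 genes called after CNO in IP, 24 were called under every alternative run, and the exception was Acss2. Counts of genes higher ranged from 21 to 23 in IP with 1 library left out, and from 6 to 9 in input. Counts of genes lower ranged from 3 to 5 in IP, with 5 without vehicle IP replicate 5, and were 1 in input without any one of the 8 libraries, since Srebf1 was lost. The input count of lower genes was also 1 with limma-voom, with eBayes without trend and robust, and with the replicate number as a block. In the interaction, the higher count ranged from 12 to 18 with 1 library left out and was 11 with upper quartile scaling. The lower count there ranged from 0 to 1, with 1 (Gpam) without CNO input replicate 5 and without vehicle IP replicate 3, with both scalings, and with mouse as a random block and as a replicate block. No call reversed its direction.

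Over all genes, the replicate number as a block gave 716 genes lower in IP (1099 without it) and 94 higher and 7 lower in input (129 and 29). The number does not pair CNO with vehicle mice: deviations of same-numbered libraries correlated at -0.17 to 0.177 in IP and -0.309 to 0.0263 in input, best with their own number in 1 of 4 and 0 of 4. With all 16 libraries in 1 fit, input gave 193 higher and 106 lower. Upper quartile scaling gave 2005 genes lower in IP. In the interaction, 680 genes were higher and 93 lower, against 1018 and 222 with mouse as a block, 1093 and 276 with mouse as a random block, 204 lower with upper quartile scaling and 156 with median-ratio scaling. The mouse block changed no call of the 37 genes other than those of Ebp, Sc5d, Elovl6 and Gpam given in the report. Each group holds 4 libraries, so small changes such as those of Fasn and Acaca were at the edge of what could be called.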

Other observations

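The libraries of a group did not stand in the same order for every gene, but the order was partly shared. In vehicle IP, replicate 3 was the highest library for 22 of the 37 genes (18 of the 23 sterol genes) and replicate 5 the lowest for 23. Vehicle IP replicate 3 also had the lowest summed level of 10 oligodendrocyte markers, 6151 to 14782 CPM being the range of its group, and replicate 5 the highest. In CNO IP, replicates 4 and 5 were the lowest for 17 genes each, and replicates 2 and 3 the highest for 15 and 18.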
